A study of Mus musculus with 6 samples.

Results

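The 9 genes measured here in brown fat of cold-exposed mice move calcium into and out of the endoplasmic reticulum (ER) and the mitochondria. They are the ER calcium pump Atp2a2, the ER release channels Itpr1, Itpr2 and Ryr2, the mitochondrial uniporter genes Mcu, Micu2 and Smdt1, and the mitochondrial exchangers Letm1 and Slc8b1. The genes were chosen by name, and their transcripts were those that the GENCODE M21 annotation of mouse build GRCm38 assigns to them. They were 9 of 21730 genes with a read, and 48 of their 72 annotated transcripts had a read, of 59371 transcripts with a read in all. Interscapular brown adipose tissue (iBAT), the heat-producing depot between the shoulder blades, was taken from 6 male wild type C57BL/6N mice, each 20 weeks of age. Cold mice 4, 11 and 15 (the 3 of the cold group) had been housed singly at 4 °C for 24 h, and ctrl mice 2, 9 and 14 (the 3 of the ctrl group) had been kept at 22 to 24 °C. The labels do not say whether the ctrl mice were also housed singly, and if they were not, cold and single housing cannot be told apart. Each mouse gave 1 Oxford Nanopore direct cDNA library, made without PCR from poly(A) RNA and run on 2 flow cells, and whole reads were counted per transcript.

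The pump encoded by Atp2a2 (SERCA2) uses ATP to carry calcium from the cytosol into the ER, and the inositol trisphosphate (IP3) receptors and ryanodine receptors let it out again. Part of the released calcium enters the mitochondrial matrix through the uniporter, whose pore is MCU, whose small subunit EMRE (Smdt1) is needed for the pore to conduct, and whose opening is gated by calcium-binding proteins such as MICU2. NCLX (Slc8b1) carries calcium out of the matrix in exchange for sodium, and LETM1 is a cation and proton exchanger of the inner membrane. In thermogenic fat, futile pumping of calcium across the ER membrane is known as a source of heat beside uncoupling by UCP1.

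The libraries held between 1657985 and 2238056 reads, at which depth 3 reads equal 1.38 to 1.72 CPM (reads normalised for library size with TMM factors). The 9 brown adipocyte markers, Ucp1 and Fabp4 among them, summed to 28098 CPM ± 1534 (SD, n = 3) in ctrl and 37184 CPM ± 950 (SD, n = 3) in the cold, without overlap (exact two-sided permutation test, p = 0.1, the smallest that 3 against 3 mice can give). Ucp1 (10535 to 13631 CPM) and Fabp4 (13562 to 19315 CPM, group means) carried most of that sum. Of the 9 markers, Ucp1, Fabp4 and Dio2 were called higher and Adipoq lower (574 to 393 CPM), and Pparg, Adrb3 and Prdm16, which were not called, had lower means in the cold. The 15 skeletal muscle markers summed to 190, 505 and 746 CPM in ctrl mice 2, 9 and 14 and to 354, 1494 and 3718 CPM in cold mice 4, 11 and 15. The muscle signal thus differed between mice within both groups, the groups overlapped (exact permutation p = 0.3), and cold mouse 15 stood highest. The 10 markers of slow or cardiac-type muscle summed to values from 3.82 CPM in cold mouse 4 to 375 CPM in cold mouse 15. Among them, the cardiac troponins Tnnt2 and Tnni3 had no read. Myh6 (0 CPM in ctrl, 0.191 in the cold) and Actc1 (0.168 and 0.733 CPM, group means) were rare. The 6 endothelial markers summed to 262 CPM ± 1.26 (SD, n = 3) in ctrl and 311 CPM ± 1.24 (SD, n = 3) in the cold (exact permutation p = 0.1). Of the 6, 1 was called higher and 0 lower. Kdr had the largest rise in group mean (55.7 to 86.1 CPM), with smaller ones for Pecam1, Cdh5 and Emcn. Egfl7 hardly differed (64.7 to 65.7 CPM), and Tie1 had a lower mean in the cold (20.2 to 15.2 CPM). In whole tissue, a lower value from fewer cells of a type and from less RNA per cell cannot be told apart.

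After 24 h in the cold, Letm1 was higher in all 3 cold mice than in any ctrl mouse, and no other gene of the 9 passed the test. Ryr2 was too rare to be tested, so edgeR's quasi-likelihood test was applied to 8 genes, and 1 was called higher and 0 lower at an adjusted p of 0.05. Over all 8684 genes tested, 19.5% were called, 9.75% as higher and 9.77% as lower, and the median log2 fold change was 0.00090. The median of the 8 tested genes was -0.026. The values of ctrl and cold mice did not overlap for 3 of the 8 (Atp2a2, Itpr2 and Letm1), as for 35.2% of all tested genes. The p-values weigh the difference between the groups against the spread between mice.

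**Figure D1:**
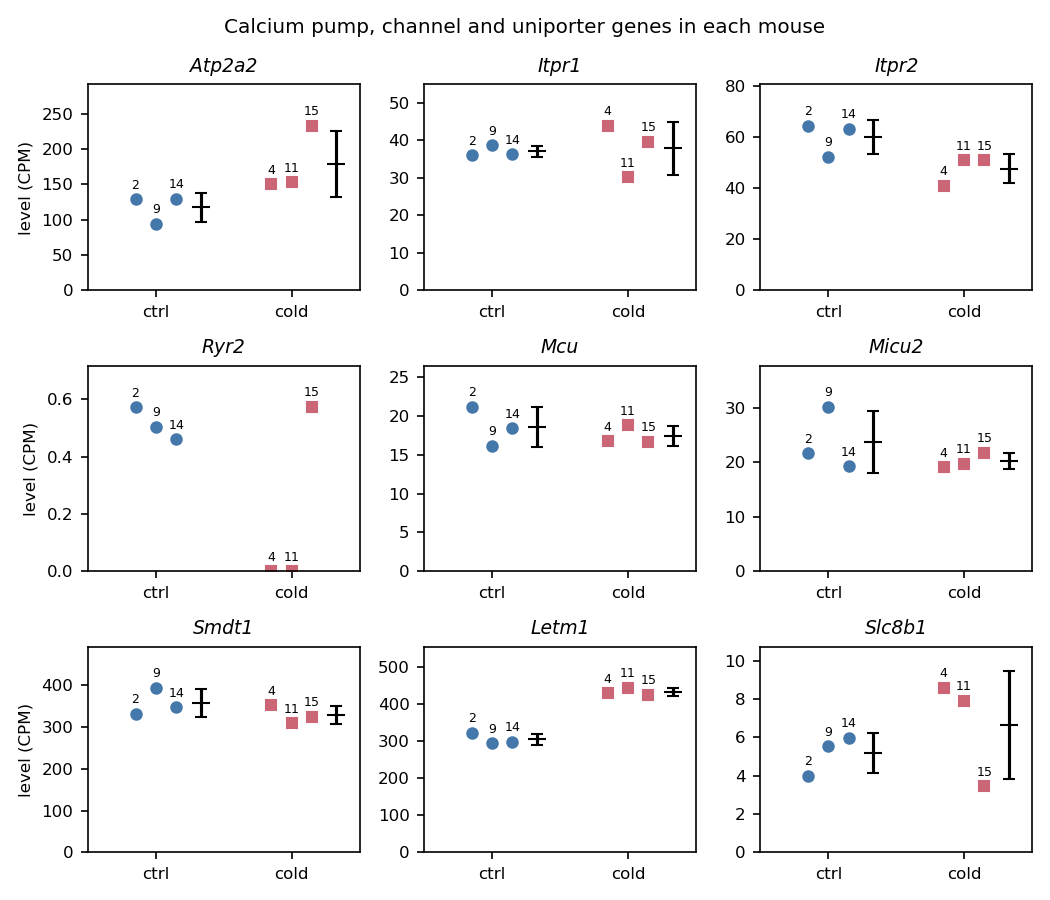
Level of each of the 9 genes (y axis, CPM) in each of the 6 mice (numbered points; circles ctrl, squares cold), with the mean and SD of each group (n = 3) beside them except for Ryr2, which has at most 1 read per mouse. Letm1 lies between 295 and 322 CPM in ctrl and between 424 and 443 CPM in the cold, and the highest Atp2a2 point is cold mouse 15 at 233 CPM.

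Levels of different genes were compared per kilobase of transcript, as CPM per kb in ctrl mice (mean ± SD, n = 3). Smdt1 was the highest at 517 ± 46.9 CPM per kb, followed by Letm1 at 58.3 ± 2.83 and Atp2a2 at 23.6 ± 4.06. Micu2 came next at 10.7 ± 2.58, then Mcu at 6.61 ± 0.898 and Itpr2 at 5.51 ± 0.618 CPM per kb. Itpr1 lay at 3.86 ± 0.158, Slc8b1 at 1.88 ± 0.377 and Ryr2 at 0.0370 ± 0.00408 CPM per kb. Mcu and Itpr2 were the only neighbours in this order whose mean ± SD ranges met. Each count is of a whole read, so the division by length lowers long transcripts against short ones, and the order depends on it. Without it, the ctrl means were 358 CPM for Smdt1, 305 for Letm1, 117 for Atp2a2, 60.1 for Itpr2, 37.0 for Itpr1, 23.8 for Micu2, 18.6 for Mcu, 5.17 for Slc8b1 and 0.512 for Ryr2, which puts both IP3 receptors above Micu2 and Mcu.

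Atp2a2 (chr5:122453513-122502225, minus strand) was higher in all 3 cold mice than in any ctrl mouse but was not called. It had 129, 94.2 and 130 CPM in ctrl mice 2, 9 and 14 and 150, 153 and 233 CPM in cold mice 4, 11 and 15. The lowest cold mouse lay above the highest ctrl mouse, and cold mouse 15 stood apart from the other cold mice. The log2 fold change was 0.60 (SE 0.228, 95% interval 0.030 to 1.17), with an adjusted p of 0.142. DESeq2 called it (log2 fold change 0.61, adjusted p = 0.0116), and so did edgeR with no filter on low counts (0.60, 0.00107), on flow cell 2 alone (0.51, 0.0254) and without cold mouse 15 (0.37, 0.0412). Cold mouse 15 was also the library with the highest muscle signal, and with that signal as a covariate the log2 fold change was 0.39 (adjusted p = 0.312). Atp2a2 in cold mouse 4 was above all 3 ctrl mice. The muscle signal of that mouse, 354 CPM, lay between that of ctrl mouse 2 (190 CPM) and that of ctrl mouse 9 (505 CPM). The part of muscle RNA in the Atp2a2 level was not tested.

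Atp2a2 encodes 2 pumps that differ at their end, and long reads that cover the splice site can tell them apart. SERCA2a, the form of heart and slow muscle, comes from Atp2a2-202 (998 codons), and SERCA2b, the form of most other tissues, from Atp2a2-201 and Atp2a2-203, which have the same annotated coding sequence (1044 codons). Atp2a2-203 is annotated as a target of nonsense-mediated decay, with a further splice after its stop codon. Atp2a2-202 and Atp2a2-203 share a last exon of 791 nt, and how reads confined to it were assigned is not given in the labels. The 2 coding ends are shown from the last 30 shared bases (lower case) to the stop codon, with the coding bases in which the 2 forms differ in capitals, on the minus strand of GRCm38; the SERCA2b capitals are chr5:122457151-122457302 and the SERCA2a capitals chr5:122454291-122454304.
SERCA2a: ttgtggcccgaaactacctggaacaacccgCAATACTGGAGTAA
SERCA2b: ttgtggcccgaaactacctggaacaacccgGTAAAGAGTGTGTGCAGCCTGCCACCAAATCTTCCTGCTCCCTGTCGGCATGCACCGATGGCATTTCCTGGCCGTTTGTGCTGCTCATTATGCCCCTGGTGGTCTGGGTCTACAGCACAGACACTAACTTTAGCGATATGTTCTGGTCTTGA
The SERCA2a end adds 14 bases from a distant exon, while the SERCA2b end reads on through 152 bases of the same exon. Atp2a2-203 shares the last exon of Atp2a2-202, so the 14 bases are also transcribed there, after its stop codon.

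By annotated coding sequence, most Atp2a2 reads were of the SERCA2b form, which was higher in the cold. Over all mice, 950 of these reads were of Atp2a2-203, the annotated decay target, and 256 were of Atp2a2-201. SERCA2a (Atp2a2-202) had 510 reads, so the order of the 2 forms rests on Atp2a2-203. SERCA2b had 97.6, 64.8 and 91.9 CPM in ctrl mice 2, 9 and 14 and 108, 111 and 146 CPM in cold mice 4, 11 and 15. All 3 cold mice were above all 3 ctrl mice, and ctrl mouse 9 was the lowest. The form rose 1.44-fold (log2 fold change 0.52, SE 0.152, adjusted p = 0.0283 by edgeR over 11025 coding-sequence groups, of which 16.8% were called). This grouping of transcripts was chosen after their values were seen. The call was lost without ctrl mouse 9 (0.36, adjusted p = 0.0851), ctrl mouse 14 (0.58, 0.0505), cold mouse 11 (0.59, 0.0510) or cold mouse 15 (0.38, 0.0728), and with the muscle covariate (0.42, 0.163).

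SERCA2a had 30.4, 29.8 and 36.8 CPM in ctrl mice 2, 9 and 14 and 40.4, 40.5 and 86.5 CPM in cold mice 4, 11 and 15. Cold mouse 15 had over 2 times the level of any other mouse, and the other cold mice lay just above the ctrl range. Its log2 fold change was 0.76 (SE 0.383, adjusted p = 0.284) with all mice and 0.32 (adjusted p = 0.247) without cold mouse 15. The share of SERCA2a among the reads of both forms was 23.8%, 31.6% and 28.6% in ctrl mice 2, 9 and 14 and 27.2%, 26.7% and 37.2% in cold mice 4, 11 and 15. Group means were 28.0% ± 3.93 and 30.4% ± 5.93 (SD, n = 3 each), and the groups overlapped (exact permutation test, p = 0.7). In cold mouse 15, which had the highest share, the 95% exact binomial interval was 32.5% to 42.1%, which covers counting error only. The high SERCA2a level in that library stood beside its high muscle signal, whose part in it was not tested; with the muscle covariate the log2 fold change of SERCA2a was 0.28 (adjusted p = 0.506).

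**Figure D2:**
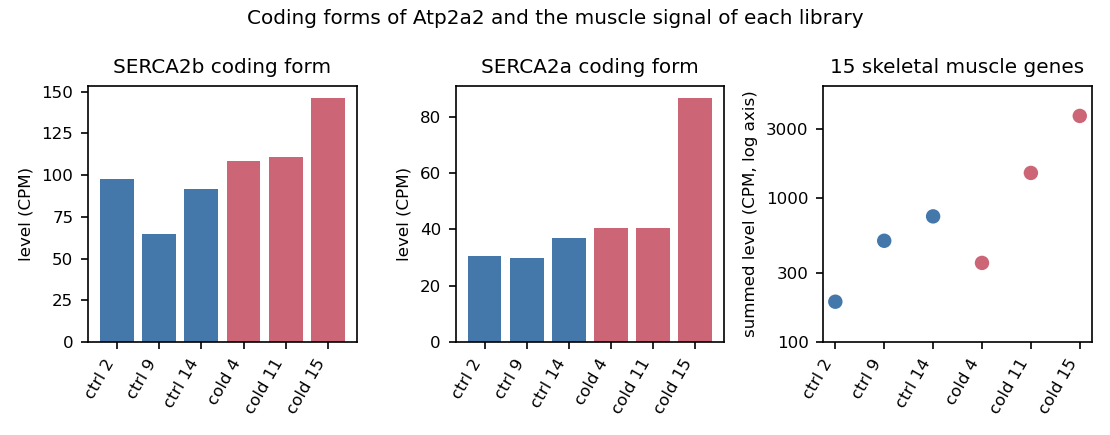
CPM of the SERCA2b and SERCA2a coding forms of Atp2a2 in each library (bars, left and middle) and the summed CPM of 15 skeletal muscle genes (points, right, log axis); blue ctrl, red cold, 1 mouse each. SERCA2b is above all ctrl mice in each of the 3 cold mice, while the SERCA2a bar of cold mouse 15 (86.5 CPM) stands apart together with its muscle sum of 3718 CPM.

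As a single transcript, Atp2a2-203 rose from 65.9 ± 15.2 to 97.3 ± 20.1 CPM (mean ± SD, n = 3; log2 fold change 0.56, SE 0.175, adjusted p = 0.0452), among 11699 transcripts tested of which 16.3% were called. Its call was lost without ctrl mouse 9, ctrl mouse 14, cold mouse 4 or cold mouse 15 (adjusted p from 0.0800 to 0.139), with DESeq2 (0.0527) and on flow cell 1 alone (0.0744). Atp2a2-201 had 18.9 ± 5.31 CPM in ctrl and 24.5 ± 5.75 CPM in the cold and was not called (0.35, adjusted p = 0.309). The mix of the 3 transcripts was not called as changed by edgeR's test of transcript usage (unadjusted p = 0.884, adjusted p = 1.00). That test called 0.195% of 2568 genes and none of the 3 members it could test (Atp2a2, Itpr1 and Smdt1).

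Itpr1 (chr6:108213096-108551109, plus strand), an IP3 receptor of the ER, was not called. It had 36.0, 38.8 and 36.3 CPM in ctrl mice 2, 9 and 14 and 43.9, 30.2 and 39.6 CPM in cold mice 4, 11 and 15. The cold mice spread on both sides of the ctrl mice. Its log2 fold change was 0.033 (95% interval -0.28 to 0.35, adjusted p = 0.913), an interval that holds changes of up to 1.27-fold upwards and 1.22-fold downwards.

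Nearly all Itpr1 reads belonged to Itpr1-201 and Itpr1-205, whose coding sequences differ by a single codon at a splice junction. The stretch is shown for Itpr1-201 with the 3 bases that Itpr1-205 lacks in capitals (GRCm38, plus strand, capitals at chr6:108432646-108432648).
Itpr1-201: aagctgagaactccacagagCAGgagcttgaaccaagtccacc
Itpr1-205 made up 34.4%, 31.5% and 48.0% of the reads of both in ctrl mice 2, 9 and 14 and 43.3%, 42.4% and 59.4% in cold mice 4, 11 and 15. The highest share was in cold mouse 15, and the groups overlapped (means 38.0% ± 8.80 and 48.4% ± 9.58, SD, n = 3 each; exact permutation test, p = 0.3). Neither Itpr1-201 (log2 fold change -0.19, adjusted p = 0.602) nor Itpr1-205 (0.40, adjusted p = 0.292) was called. With 59 to 90 reads of both per mouse, the 95% exact binomial interval of a single share spans over 20 percentage points. How reliably the counting told a difference of 3 bases apart was not tested.

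Itpr2 (chr6:146108299-146502223, minus strand), the other IP3 receptor measured here, was lower in all 3 cold mice but missed the threshold. It had 64.6, 52.4 and 63.4 CPM in ctrl mice 2, 9 and 14 and 41.1, 51.0 and 51.1 CPM in cold mice 4, 11 and 15. The groups did not overlap, though ctrl mouse 9 lay within 2 CPM of cold mice 11 and 15. The log2 fold change was -0.34 (SE 0.132, 95% interval -0.61 to -0.062, adjusted p = 0.0791). It was called without ctrl mouse 9 (-0.43, adjusted p = 0.0386), while DESeq2 gave an adjusted p of 0.505. Per length, Itpr2 and Itpr1 lay at 5.51 and 3.86 CPM per kb in ctrl mice.

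The main transcript, Itpr2-202, fell 1.33-fold, from 53.9 ± 7.20 to 40.3 ± 3.31 CPM (mean ± SD, n = 3; log2 fold change -0.42, SE 0.142, adjusted p = 0.0446). Its values were 60.2, 46.0 and 55.3 CPM in ctrl mice 2, 9 and 14 and 37.0, 40.4 and 43.6 CPM in cold mice 4, 11 and 15. The groups did not overlap, and cold mouse 4 was the lowest. The call was lost with DESeq2 (adjusted p = 0.403), with no filter on low counts (0.145), on either flow cell alone (0.0868 and 0.231), and without ctrl mouse 2, ctrl mouse 14, cold mouse 4, cold mouse 11 or cold mouse 15 (0.0515 to 0.177).

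Itpr2-201 carries a coding exon of 99 bases that Itpr2-202 skips and that leaves the reading frame intact. It is shown with 20 bases of the exons on each side, the exon itself in capitals (GRCm38, minus strand, exon at chr6:146418418-146418516).
Itpr2-201: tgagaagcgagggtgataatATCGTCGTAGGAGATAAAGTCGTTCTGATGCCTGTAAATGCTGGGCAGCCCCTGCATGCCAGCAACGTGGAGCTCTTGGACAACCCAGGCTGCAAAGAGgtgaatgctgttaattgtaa
Reads of Itpr2-201 made up 3.67%, 6.19% and 8.40% of both transcripts in ctrl mice 2, 9 and 14 and 4.88%, 14.6% and 12.6% in cold mice 4, 11 and 15. Cold mice 11 and 15 were the highest and cold mouse 4 lay inside the ctrl range (exact permutation test, p = 0.3). These shares rest on 4 to 14 reads of Itpr2-201 per mouse. The 2 transcripts also differ outside their annotated coding bases, with 228 nt there in Itpr2-201 and 3675 nt in Itpr2-202. How reads that do not reach the exon were assigned is not given in the labels, so the shares do not measure the exon alone.

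Ryr2 (chr13:11553102-12106945, minus strand), the ryanodine receptor best known from heart muscle, was at the edge of detection. It had 1 read in each ctrl mouse, 0 reads in cold mice 4 and 11 and 1 read in cold mouse 15. Counts this low allow no comparison between the groups. For the mice without a read, 3 reads equal 1.43 CPM in cold mouse 4 and 1.48 CPM in cold mouse 11. The lowest level that would have given a read in them was not tested.

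Mcu (chr10:59446984-59616692, minus strand), the pore of the uniporter, was not called. It had 21.2, 16.1 and 18.4 CPM in ctrl mice 2, 9 and 14 and 16.7, 18.8 and 16.6 CPM in cold mice 4, 11 and 15. All cold values lay inside the ctrl range. Its log2 fold change was -0.084 (SE 0.198, 95% interval -0.50 to 0.33, adjusted p = 0.823), an interval from a 1.41-fold fall to a 1.25-fold rise. Its main transcript Mcu-202 held 95.3% of the reads of the gene and was not called either (log2 fold change -0.041, adjusted p = 0.925).

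Micu2 (chr14:57916261-57999262, minus strand), a gatekeeper of the pore, was not called. It had 21.7, 30.2 and 19.3 CPM in ctrl mice 2, 9 and 14 and 19.1, 19.8 and 21.8 CPM in cold mice 4, 11 and 15. The groups overlapped, and ctrl mouse 9 alone stood above the others. Its log2 fold change was -0.23 (SE 0.197, 95% interval -0.64 to 0.18, adjusted p = 0.463). The coding transcript Micu2-201 had 20.2 ± 5.53 CPM in ctrl and 14.8 ± 0.525 CPM in the cold (mean ± SD, n = 3; log2 fold change -0.44, adjusted p = 0.197). Micu2-205, which is annotated without a coding sequence, made up 7.89%, 13.6% and 22.0% of the reads of both in ctrl mice 2, 9 and 14 and 23.1%, 22.5% and 31.6% in cold mice 4, 11 and 15. Cold mice 4 and 11 lay just above ctrl mouse 14, on 3 to 12 reads of Micu2-205 per mouse (exact permutation test, p = 0.1, the smallest possible).

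Smdt1 (chr15:82338959-82349091, plus strand), which encodes the EMRE subunit, was the most abundant of the uniporter genes and was not called. It had 332, 394 and 347 CPM in ctrl mice 2, 9 and 14 and 352, 309 and 325 CPM in cold mice 4, 11 and 15. The groups overlapped, with ctrl mouse 9 highest and cold mouse 11 lowest. The log2 fold change was -0.12 (SE 0.0843, adjusted p = 0.360), and its 95% interval of -0.30 to 0.054 leaves room for at most a 1.04-fold rise or a 1.23-fold fall.

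Smdt1 has a second frequent transcript, Smdt1-204, annotated as a target of nonsense-mediated decay. It splices from a donor 49 bases further upstream in exon 1, which shifts the reading frame onto an early stop codon after 57 codons, against 107 codons in Smdt1-201. The junction is shown for both on the plus strand of GRCm38, with the 49 bases that Smdt1-204 lacks (chr15:82346221-82346269) and its early stop codon in capitals.
Smdt1-201: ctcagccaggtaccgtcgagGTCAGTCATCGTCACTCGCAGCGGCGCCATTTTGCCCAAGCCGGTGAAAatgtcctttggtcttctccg
Smdt1-204: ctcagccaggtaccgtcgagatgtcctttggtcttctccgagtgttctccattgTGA
All bases shown are coding in the respective annotated transcript.

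The full-length Smdt1-201 was not called (318 ± 25.9 and 298 ± 20.7 CPM, mean ± SD, n = 3; log2 fold change -0.093, adjusted p = 0.534). Smdt1-204 had 32.7, 44.0 and 32.3 CPM in ctrl mice 2, 9 and 14 and 25.1, 22.7 and 27.0 CPM in cold mice 4, 11 and 15. All cold mice were below all ctrl mice, and ctrl mouse 9 was the highest. It fell 1.46-fold (log2 fold change -0.54, SE 0.171, adjusted p = 0.0272). The call was lost with DESeq2 (adjusted p = 0.336), with no filter on low counts (0.0663), on either flow cell alone (0.0730 and 0.160), and without ctrl mouse 9, cold mouse 4 or cold mouse 11 (0.0775 to 0.200).

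As a share of both transcripts, Smdt1-204 made up 9.93%, 11.3% and 9.42% in ctrl mice 2, 9 and 14 and 7.30%, 7.53% and 8.38% in cold mice 4, 11 and 15. The shares did not overlap, with means of 10.2% ± 0.955 and 7.74% ± 0.568 (SD, n = 3 each; exact permutation test, p = 0.1, the smallest that 3 against 3 mice can give). The counting intervals of single mice overlapped, for example 7.61% to 12.7% in ctrl mouse 2 and 6.22% to 11.0% in cold mouse 15 (95% exact binomial). The usage test over both transcripts gave an unadjusted p of 0.0585 and an adjusted p of 1.00.

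**Figure D3:**
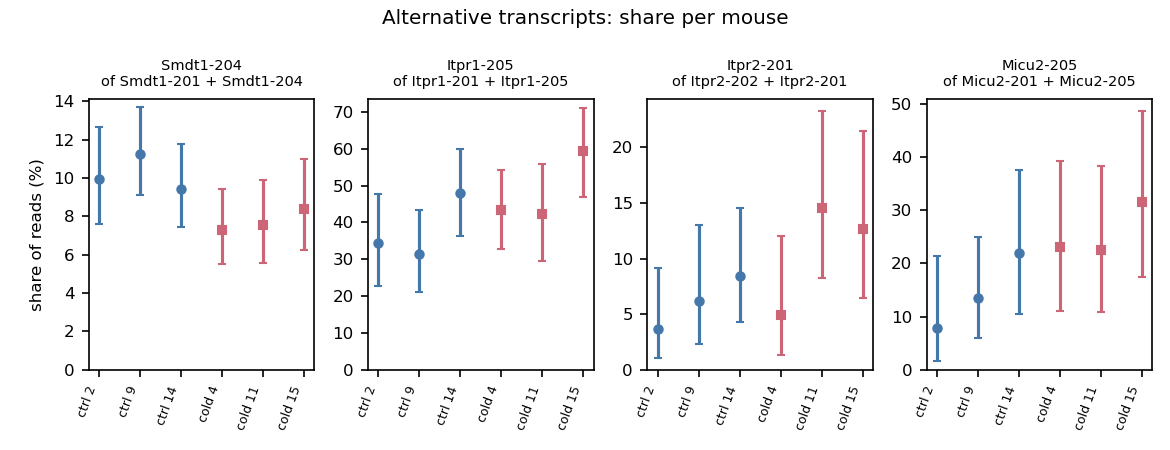
Share of reads (y axis, %) of 4 alternative transcripts of Smdt1, Itpr1, Itpr2 and Micu2 in each mouse (circles ctrl, squares cold), with 95% exact binomial intervals for counting error. The Smdt1-204 share lies between 9.42% and 11.3% in ctrl mice and between 7.30% and 8.38% in cold mice, and the intervals of Itpr2-201 and Micu2-205 are wide because few reads support them.

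Letm1 (chr5:33739673-33782817, minus strand), the inner-membrane exchanger, rose in the cold, and all 3 cold mice lay above all 3 ctrl mice at similar levels. It had 322, 295 and 298 CPM in ctrl mice 2, 9 and 14 and 428, 443 and 424 CPM in cold mice 4, 11 and 15. The groups were far apart against a spread of 14.8 CPM (SD, n = 3) in ctrl and 10.2 CPM in the cold. The rise was 1.42-fold (95% interval 1.27 to 1.58; log2 fold change 0.50, SE 0.0759, adjusted p = 5.06e-05). It was called in all 15 alternative analyses, with log2 fold changes from 0.47 to 0.56.

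Cold mice 4, 11 and 15, with 354, 1494 and 3718 CPM of muscle markers, had 428, 443 and 424 CPM of Letm1. With the muscle covariate the log2 fold change was 0.53 (adjusted p = 0.000509). The part of muscle RNA in the Letm1 level was not tested. The transcript Letm1-201, of 738 codons, held 98.4% of the reads of the gene and carried the same change (log2 fold change 0.50, SE 0.0790, adjusted p = 3.23e-05). Both flow cells showed the higher level, with 314 and 472 CPM of all matched reads (ctrl and cold means) on flow cell 1 and 271 and 400 CPM on flow cell 2. The summed brown adipocyte markers, mostly Ucp1 and Fabp4, were also higher in the cold, while Adipoq was lower, and their part in the rise of Letm1 was not tested.

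The genes whose log2 CPM over the 6 libraries was most like that of Letm1 were Mgll (Pearson r = 0.997), which encodes the lipase that splits monoacylglycerol, Serinc1 (0.996), which encodes a membrane protein, and Fabp4 (0.995), which encodes the adipocyte fatty acid carrier. They rose by 0.55, 0.59 and 0.51 on the log2 scale. With 6 libraries in 2 groups, the points share the step between the groups, and 391 of 3145 candidate genes of at least 30 CPM had an r above 0.9.

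Slc8b1 (chr5:120511168-120534024, plus strand), which encodes the sodium and calcium exchanger NCLX, was rare. It had 4.00, 5.54 and 5.98 CPM in ctrl mice 2, 9 and 14 and 8.59, 7.92 and 3.44 CPM in cold mice 4, 11 and 15, from 6 to 18 reads per mouse. Cold mice 4 and 11 were the highest and cold mouse 15 was the lowest of all. The log2 fold change was 0.38 (SE 0.361, adjusted p = 0.530), and its 95% interval of -0.37 to 1.12 holds changes in either direction.

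**Figure D4:**
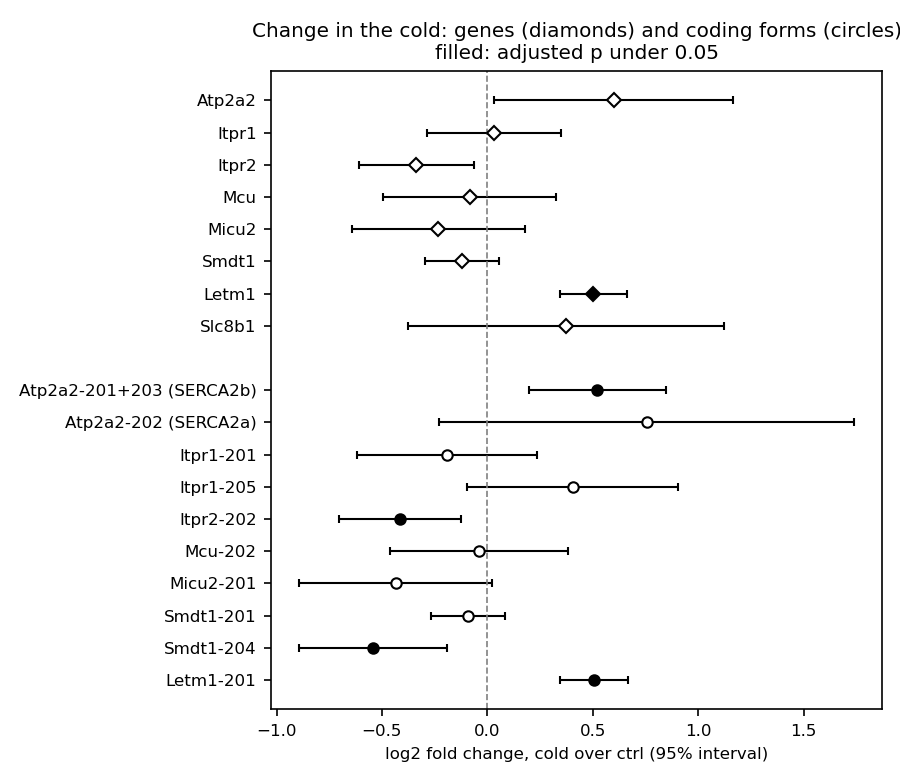
Log2 fold change in the cold over ctrl (x axis) with 95% intervals for the 8 tested genes (diamonds) and for their transcripts grouped by coding sequence (circles); filled symbols have an adjusted p under 0.05. Letm1 is the only filled gene, and SERCA2b, Itpr2-202, Smdt1-204 and Letm1-201 are the filled coding forms.

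Other calcium-handling genes were read from 11 lists by role, which hold none of the 9 genes above. Of 155 genes named, 146 had a read and 88 passed the filter on low counts. There were 17 called higher and 6 called lower (26.1% of the tested, against 19.5% of all genes), with a median log2 fold change of 0.080. DESeq2 called 9 of them higher and 2 lower. By list, the share called was 60% for ER luminal calcium binding, 50% for store-operated entry and 44.4% for other mitochondrial genes and carriers. It was 33.3% for release channels, 25% for the uniporter complex, 22.2% for IP3 production and breakdown and 18.2% for ER-mitochondria contacts. For calcium sensors it was 5.88%, and in each remaining list 0%. The lists held 1 to 17 tested genes, and 19.5% of all tested genes were called.

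Among SERCA pumps and their regulators, 5 of 8 genes had a read and 1 was tested. That was Atp2a1, the pump of fast muscle, with 10.9, 50.9 and 76.8 CPM in ctrl mice 2, 9 and 14 and 32.0, 158 and 344 CPM in cold mice 4, 11 and 15. Its order over the 6 mice was that of the muscle markers, and it was not called (log2 fold change 1.88, adjusted p = 0.347). With the muscle covariate its log2 fold change was -0.14.

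Among ER release channels and their regulators, 1 of 9 tested genes rose and 2 fell (median log2 fold change -0.094). Erp44, an ER protein that binds IP3 receptors from the luminal side, rose 1.36-fold (log2 fold change 0.45, adjusted p = 0.0418). Ahcyl2, a relative of the IP3 receptor inhibitor IRBIT, fell 1.52-fold (-0.60, adjusted p = 0.0246), and IRBIT itself (Ahcyl1) fell 1.19-fold (-0.25, adjusted p = 0.0487). The Ahcyl1 call was lost when any of the 6 mice was left out (adjusted p from 0.0502 to 0.203), the Erp44 call without any but cold mouse 11 (0.0643 to 0.172), and the Ahcyl2 call without ctrl mouse 2, ctrl mouse 14, cold mouse 4 or cold mouse 11 (0.0654 to 0.0850). With DESeq2 none of the 3 was called (0.283 to 0.337), nor with the muscle covariate (0.0664 to 0.264). On 1 flow cell alone, Erp44 was lost on both (0.308 and 0.0583), Ahcyl2 on flow cell 1 (0.232) and Ahcyl1 on flow cell 2 (0.196), and Ahcyl1 was also lost with protein-coding transcripts only (0.0722).

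Calcium-binding proteins of the ER lumen hold the calcium that Atp2a2 pumps in and also fold proteins. Of 10 tested, 6 were called higher and 0 lower (median 0.59), against 9.75% called higher over all tested genes. Calr, the main luminal calcium buffer, rose 1.83-fold from 125 ± 8.26 to 229 ± 23.4 CPM (mean ± SD, n = 3), and its membrane relative Canx rose 1.66-fold from 138 ± 10.8 to 228 ± 19.4 CPM. Calu, a low-affinity calcium binder, rose 1.60-fold (adjusted p = 0.000183), though it was not called on flow cell 2 alone (log2 fold change 0.44, adjusted p = 0.106). The values of ctrl and cold mice did not overlap for any of the 6 called genes, as for 35.2% of all tested genes. The other 3 called genes were the chaperones Hspa5, Hsp90b1 and Pdia3, with rises of 1.56-fold, 1.47-fold and 1.39-fold (adjusted p = 2.11e-05, 0.000875 and 0.00306). They were named after their values were seen, as was Hrc, a muscle protein of the same list, which was not called (log2 fold change 1.87, adjusted p = 0.447) and stood in the order of the muscle markers.

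For store-operated entry, by which an emptied ER draws calcium across the plasma membrane, 2 of 6 tested genes rose and 1 fell (median -0.036). Saraf, which damps this entry, rose 1.67-fold (log2 fold change 0.74, adjusted p = 2.38e-05), and the ER calcium sensor Stim1 rose 1.38-fold (0.47, adjusted p = 0.0151). The channel gene Orai3 fell 1.51-fold (-0.60, adjusted p = 0.0321). The Stim1 call was lost without ctrl mouse 9, ctrl mouse 14 or cold mouse 11 (adjusted p from 0.0698 to 0.0902), and the Orai3 call without ctrl mouse 2, ctrl mouse 14 or cold mouse 4 (0.0663 to 0.154). Both calls were lost with DESeq2 (0.185 for Stim1 and 0.335 for Orai3). On flow cell 2 alone the log2 fold change of Stim1 was 0.091 (adjusted p = 0.840). The Orai3 call was also lost on either flow cell alone (0.0571 and 0.324) and with the muscle covariate (0.0846).

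Around the uniporter, 1 of 8 tested genes of the complex and its assembly rose and 1 fell (median 0.12). Phb, which encodes a scaffold of the inner membrane, rose 1.20-fold (log2 fold change 0.27, adjusted p = 0.0202), a call lost without ctrl mouse 2, ctrl mouse 9 or cold mouse 4 (0.0700 to 0.127), with DESeq2 (0.0763) and on flow cell 2 alone (0.117). Spg7, a subunit of an inner-membrane protease that degrades unassembled EMRE, fell 1.65-fold from 61.9 ± 7.42 to 37.6 ± 0.846 CPM (mean ± SD, n = 3; adjusted p = 0.000359). Mcub, the inhibiting relative of the pore, was under the filter.

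Other mitochondrial calcium genes and calcium-sensing carriers gave 3 called higher and 1 lower of 9 tested (median 0.15). Slc25a23, a calcium-activated carrier of ATP and phosphate that has also been tied to the uniporter, fell 2.71-fold. It had 74.9, 62.0 and 61.6 CPM in ctrl mice 2, 9 and 14 and 27.2, 21.3 and 24.1 CPM in cold mice 4, 11 and 15 (log2 fold change -1.44, SE 0.145, adjusted p = 2.26e-07). The groups were far apart, and the fall was called in all 15 alternative analyses. Slc25a12, the calcium-sensing aspartate and glutamate carrier, rose 2.10-fold from 3.66 to 7.99 CPM (adjusted p = 0.0410), a call lost without ctrl mouse 2, ctrl mouse 9, ctrl mouse 14, cold mouse 11 or cold mouse 15 (0.0611 to 0.185). It was also lost with DESeq2 (0.342) and with the muscle covariate, where the log2 fold change was 0.64 (adjusted p = 0.390). Ucp2, an uncoupling protein relative of the inner membrane, rose 1.64-fold (adjusted p = 0.000368).

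At contacts between ER and mitochondria, 2 of 11 tested genes rose and 0 fell (median 0.042). Hspa9, the matrix chaperone that also bridges IP3 receptors to the outer membrane, rose 1.26-fold (log2 fold change 0.33, adjusted p = 0.00333), and the tether Rmdn3 rose 1.23-fold (0.30, adjusted p = 0.0313). The Rmdn3 call was lost without ctrl mouse 2, ctrl mouse 9, cold mouse 4 or cold mouse 15 (0.0628 to 0.160), with DESeq2 (0.183), on either flow cell alone (0.123 and 0.0680) and with the muscle covariate (0.201).

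None of 3 tested genes in the list of plasma membrane pumps and exchangers was called, of which Atp2c1 encodes a pump of the Golgi. None of 5 tested plasma membrane channels was called either. The largest differences there were 0.35 for Atp2b1 and -0.43 for Atp2b4 among pumps, and 0.69 for Cacna2d1 and 0.61 for Cacna1a among channel subunits (log2 fold changes, adjusted p = 0.314, 0.482, 0.254 and 0.0672). Cacna1a was called without ctrl mouse 2 (0.80, adjusted p = 0.0388) and on flow cell 1 alone (0.98, adjusted p = 0.0161), while on flow cell 2 alone its log2 fold change was -0.0455. Of the IP3 pathway upstream of the release channels, 1 of 9 tested genes rose and 1 fell (median 0.061): the phospholipase Plcd1 rose 1.59-fold (adjusted p = 0.0204) and the G protein subunit Gna11 fell 1.36-fold (adjusted p = 0.0344). The Plcd1 call was lost without ctrl mouse 14, cold mouse 4 or cold mouse 15 (0.0551 to 0.110), and the Gna11 call without ctrl mouse 9, ctrl mouse 14, cold mouse 4 or cold mouse 15 (0.0931 to 0.139). Both were lost with DESeq2 (0.264 for Plcd1 and 0.343 for Gna11), with the muscle covariate (0.0543 and 0.0771), with protein-coding transcripts only (0.185 and 0.0515) and on flow cell 2 alone (0.0694 and 0.632), and Plcd1 also on flow cell 1 alone (0.145). Of 17 tested calcium sensors and effectors, Calm2, which encodes calmodulin, was the only gene called, with a 1.30-fold rise (log2 fold change 0.38, adjusted p = 0.00625; median of the list -0.15). Its call was lost with DESeq2 (0.0627) and on flow cell 1 alone (0.28, adjusted p = 0.0839).

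**Figure D5:**
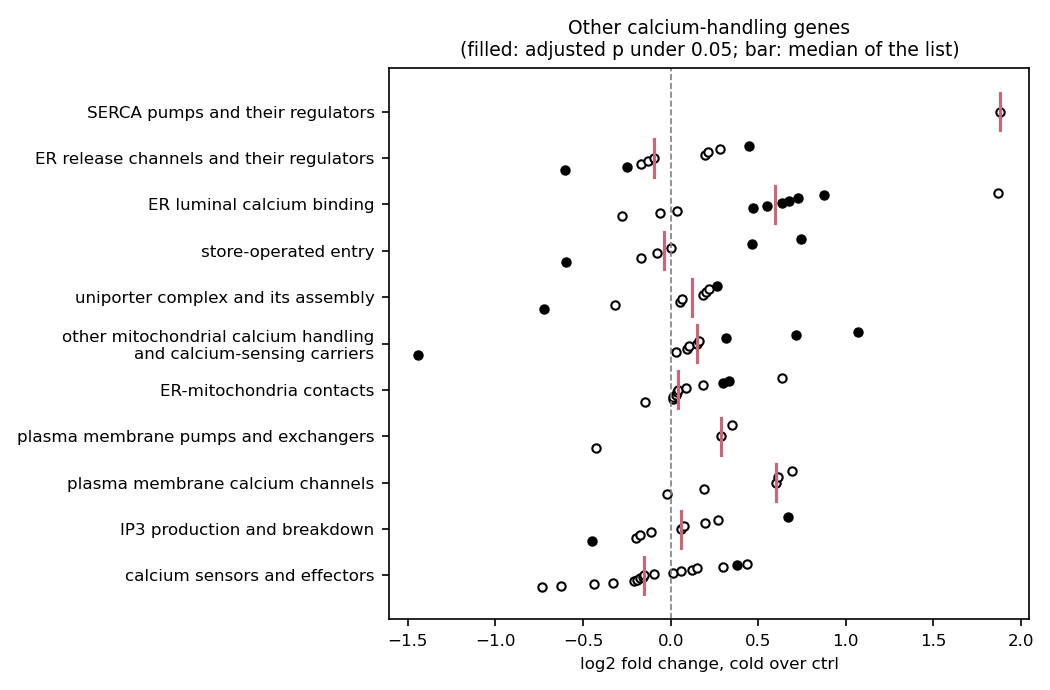
Log2 fold change in the cold over ctrl (x axis) of the 88 tested genes of 11 lists (y axis; 1 point per gene, filled where the adjusted p is under 0.05), with the median of each list as a bar. The ER luminal list has 6 filled points above 0 and none below, and the leftmost point is Slc25a23 at -1.44.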

How the data were processed

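Reads of 6 libraries were counted per annotated transcript by the authors, who deposited whole-number counts, 1 table per library and flow cell, with no normalization. The authors mapped reads with minimap2 to GRCm38, per the submitters' processing notes; for its version, for the annotation release and for strand, multi-mapping and read filters the entry is: not given in the sources used here. The labels' extraction text names another fat depot, while the tissue fields say iBAT, which was followed.

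Here 59371 of 59543 transcripts were matched to GENCODE M21 (59278 with their version); the unmatched 172 held 0.0836% of reads and were left out. Counts were summed over both flow cells of a mouse and over the transcripts of a gene. Genes, transcripts and groups of transcripts with the same coding sequence were each tested as a whole table with edgeR 4.0.16 (glmQLFit with robust estimation, glmQLFTest) in R 4.3.3, after TMM scaling and filterByExpr, on all 6 libraries without covariates, with Benjamini-Hochberg adjusted p-values called at 0.05. Fold changes and SE are on the log2 scale. Usage was tested with diffSpliceDGE. DESeq2 1.42.0 was an alternative. Shares and marker sums were compared with exact two-sided permutation tests over mice. The self-written code was tested on simulated data.

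The genes, lists and tests were chosen with earlier results of these data known. From each list, up to 3 called genes by size of change are named, or, where none was called, the 2 with the largest change; for Letm1 the 3 most alike genes are named.

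Annotated genes on the opposite strand overlapped exons of Atp2a2 (83 nt) and Itpr1 (108 and 181 nt) and held 7, 1 and 0 reads; Pheta2 overlapped Smdt1 on the same strand (245 nt) with 3 reads. The only near-identical transcript of another gene found with minimap2 2.31, Gm30970 (99.2% identity to Atp2a2 over 359 nt), had 0 reads. Promoters and proteins are not printed.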

Additional observations from a re-analysis of the deposited data

How the results depend on the processing

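Up to 15 alternatives were run for each gene and 11 for each transcript. Letm1 and Letm1-201 were called under all of theirs. No paired analysis was possible because the mouse numbers of the groups differ. The calls over all genes (847 higher, 848 lower) became 467 and 353 with DESeq2 and 429 and 408 on flow cell 2 alone, and lower calls became 545 with the muscle covariate and 506 without ctrl mouse 2 and cold mouse 15, which was chosen after seeing the data. Over all transcripts (975 higher, 930 lower) they became 483 and 398 with DESeq2 and 466 and 446 on flow cell 2. With 1 mouse left out, gene calls ranged from 669 to 737 higher and 644 to 684 lower, and transcript calls from 724 to 831 and 707 to 776. Of the 9 genes, 2 instead of 1 were called higher with DESeq2, with no filter and on flow cell 2, and 1 or 2 with a mouse left out; 0 or 1 were called lower with a mouse left out (1 without ctrl mouse 9). Their called transcripts numbered 4 (Atp2a2-203, Itpr2-202, Smdt1-204 and Letm1-201), while 16.3% of all 11699 tested transcripts were called. Tested but not called were Atp2a2-201, Atp2a2-202, Itpr1-201, Itpr1-205, Mcu-202, Micu2-201 and Smdt1-201. The 4 called became 1 with DESeq2, 1 on flow cell 1, 2 on flow cell 2 and 1 to 3 with a mouse left out. The lists held 17 higher and 6 lower calls, but 9 and 2 with DESeq2, 8 and 3 on flow cell 2, 12 to 15 and 2 to 4 with a mouse left out, and 2 lower both with the muscle covariate and without ctrl mouse 2 and cold mouse 15. Usage calls (5) were 3 on flow cell 2 and 4 to 6 with a mouse left out. Calls over coding-sequence groups (1854), a grouping chosen after seeing the data, were 907 on flow cell 2 and 1425 to 1560 with a mouse left out.

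Signs turned for these log2 fold changes, none of them called. Itpr1 was -0.0477 on flow cell 1 and -0.0114 without both ctrl mouse 2 and cold mouse 15; with a mouse left out it ranged from -0.0947 to 0.18. Mcu ranged from -0.18 to 0.0103 with a mouse left out and was 0.0393 without both ctrl mouse 2 and cold mouse 15, and Mcu-202 from -0.13 to 0.0397. On flow cell 2 alone, Micu2 was 0.0241, Micu2-201 0.0944, Itpr1-201 0.0445, Atp2a2-201 -0.0389 and Cacna1a -0.0455. Atp2a1 was -0.14 with the muscle covariate. The cause of these changes was not tested; leaving out mice or using 1 flow cell also leaves fewer reads.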
